A study of Sus scrofa with 8 samples.

Results

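Glycolysis breaks glucose down to pyruvate, and lactate dehydrogenase turns pyruvate into lactate. The genes examined here are 10 that cover this route, namely the glucose carriers SLC2A1 and SLC2A3, the hexokinases HK1 and HK2, the phosphofructokinase PFKP, the phosphoglycerate kinase PGK1, the enolases ENO1 and ENO2, and the lactate dehydrogenases LDHA and LDHB. Their rows were found in the deposited table of counts by symbol, through the pig Ensembl gene names, without use of any measured value. The list of 10 itself was drawn up with earlier results of these data known. Of the 24358 identifiers in that table, 8 carried a symbol from the list, and all 8 passed the filter on low counts. No identifier carries the symbol SLC2A1 or SLC2A3 in the gene names used, and the reads at their positions are described below.

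The cells, named DOX-hLIF-2i piPSCs, are pluripotent lines reprogrammed from pig embryonic fibroblasts (PEFs) with doxycycline-inducible FUW-OSKM, and they needed this exogenous OSKM to keep renewing themselves. PB-CAG-IRF1-Flag was transfected into the IRF-1 overexpressing cells (replicates 1 and 3) and PB-CAG-Flag, which lacks the insert, into the control cells (replicates 6 and 8). Both were selected with puromycin, so the transgene was driven by the CAG promoter in a selected population and its endogenous counterpart was left in place. The sample labels give overexpression as the genotype of every RNA-seq library and name LCDMV as the culture, and the groups used here are those the study gives for its library names. IRF1 itself had 8206 and 5485 counts in the overexpressing pair, against 55 and 56 counts in the controls. Gene-assigned reads numbered 24923319 and 20858333 in overexpressing replicates 1 and 3, and 15925429 and 17097669 in control replicates 6 and 8. No source says that the replicates came from separate cultures, so the p-values measure only the spread between these libraries, which may be technical.

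Several steps of the route are served by isozymes, related enzymes from separate genes that catalyse the same reaction. HK1 is the broadly expressed hexokinase and HK2 the inducible one that prevails in muscle, fat and many tumours. ENO1 is the general enolase and ENO2 the form enriched in neurons, while LDHA and LDHB encode the subunits that favour lactate and pyruvate production, respectively. Pluripotent cells are known for a high glycolytic rate, and the balance between glycolysis and respiration differs between naive and primed states.

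PFKP was the member that changed most, and most of the other members rose by a smaller amount in the IRF-1 overexpressing cells. A gene was called when its adjusted p in edgeR's quasi-likelihood test was under 0.05 and its log2 fold change was at least 1 in size. By that rule 1 of the 8 members, PFKP, was called higher, beside 8.61% of the 13250 genes tested. The control libraries alone would not have carried PFKP through the filter on low counts. None of the 8 members was called lower, beside 10.6% of the genes tested, and edgeR at an unadjusted p under 0.05, DESeq2 and limma-voom also gave 0 lower members. With the adjusted p alone, 6 of the 8 members were higher, beside 13.9% of the genes tested, and 0 were lower, beside 15.5%. Since the members were chosen with earlier results of these data known, this count is not an independent result. The 6 were PFKP, PGK1, HK2, LDHA, LDHB and ENO1, and below a gene "rose" or "fell" when it passed this adjusted p and "lost its call" where an alternative no longer passed it. The median log2 fold change was 0.51 over the 8 members and 0.00 over all genes tested. Without overexpressing replicate 1 the count of 6 dropped to 1 (PFKP), and 6.35% of the genes tested in that smaller fit were higher. Without overexpressing replicate 3 it dropped to 3 (PFKP, PGK1 and HK2), beside 9.80%. With glmTreat, which tests against a log2 fold change of 1 and so passes no gene with a smaller change, PFKP alone of the members passed. Mitochondrial reads made up 8.62% and 7.57% of the gene-assigned reads in the overexpressing libraries, against 6.29% and 6.68% in the controls. In the fit without mitochondrial and the 10 highest genes the same 6 members were higher. In bulk RNA, fewer cells of a type and less RNA per cell cannot be told apart, and this holds for every value given here.

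**Figure D1:**
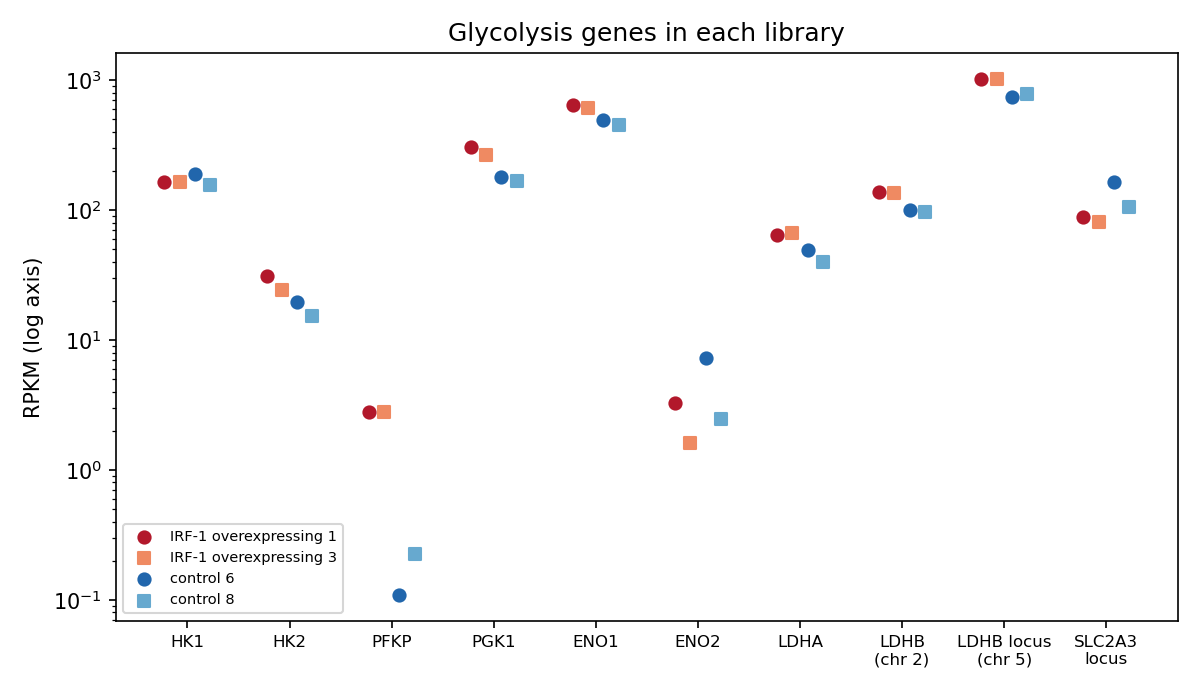
Level of each glycolysis gene in each library, in RPKM (CPM per kilobase of exon, log axis), with 1 point per library; circles and squares mark the replicates, red the IRF-1 overexpressing cells and blue the control cells. PFKP separates most, with 2.80 and 2.77 RPKM in the overexpressing libraries against 0.109 and 0.223 in the controls, and HK1 and ENO2 overlap between the groups.

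Glucose enters cells through the facilitative carriers of the SLC2A family. In the RefSeq annotation of the same assembly, Sscrofa11.1, SLC2A3 lies on chromosome 5 from 62963635 to 63041955. An identifier without a symbol, ENSSSCG00000022925, has all of its 4497 exon bases inside that gene. Its level, in CPM (counts scaled by library size and TMM factor), was 399 and 366 in overexpressing replicates 1 and 3, and 736 and 473 in control replicates 6 and 8. Both overexpressing libraries lay below both controls, and the controls differed from each other more than the lower control differed from the overexpressing cells. The identifier fell with a log2 fold change of -0.66 (SE 0.21, edgeR adjusted p = 0.0467). This call was lost in limma-voom (-0.62), without overexpressing replicate 1 (-0.71), without replicate 3 (-0.59) and without control replicate 6 (-0.31).

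SLC2A1, the carrier of most proliferating cells, could not be measured on its own. Its RefSeq gene on chromosome 6 (168535398 to 168561170) overlaps the identifier named P3H1 (168535654 to 168690034), a collagen-modifying enzyme. That identifier spans 7 RefSeq genes and has 33.0% of its 8888 exon bases inside SLC2A1. This identifier had 3785 and 4590 counts in the overexpressing pair, against 21234 and 15214 in the controls. Its groups did not overlap, and it fell with a log2 fold change of -2.58 (SE 0.26, edgeR adjusted p = 0.000666). Reads of the genes it spans cannot be told apart in the counts, so no value is given for SLC2A1 and no ratio of SLC2A3 to SLC2A1 was formed.

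Among 13 other hexose transporter genes, 10 were tested, of which 2 rose and 1 fell, with a median log2 fold change of -0.19. These counts stand beside 13.9% higher and 15.5% lower of all genes tested. SLC2A4, the insulin-responsive carrier of muscle and fat, had 94 and 56 counts in the overexpressing pair, against 303 and 192 in the controls. It fell with a log2 fold change of -2.22 (SE 0.36, edgeR adjusted p = 0.00371). SLC2A13, a proton-coupled myo-inositol carrier, had 998 and 516 counts against 113 and 105. Its groups were far apart, at a log2 fold change of 2.30 (SE 0.28, edgeR adjusted p = 0.00124). SLC2A6 was counted at only 53 and 25 against 5 and 10, and its call (log2 fold change 1.88, SE 0.57, edgeR adjusted p = 0.0410) was lost in DESeq2 (1.91), in limma-voom (1.83), in glmTreat (adjusted p = 0.234) and without any 1 of the 4 libraries (1.42 to 2.38).

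Hexokinase traps glucose in the cell by phosphorylating it. HK1 (ENSSSCG00000010253, chromosome 14, 72382912 to 72460924) stood at 666 and 662 CPM in the overexpressing replicates and 761 and 632 CPM in the controls. The overexpressing libraries lay between the controls. Its log2 fold change was -0.07 (SE 0.14, 95% interval -0.39 to 0.25, edgeR adjusted p = 0.741), and its sign turned without control replicate 6 (0.0689). HK2 (ENSSSCG00000008261, chromosome 3, 68153824 to 68231615) stood at 166 and 130 CPM against 105 and 82.5 CPM. Both overexpressing libraries were above both controls, and HK2 rose with a log2 fold change of 0.66 (SE 0.18, edgeR adjusted p = 0.0310), a call that was lost without overexpressing replicate 1 (0.49).

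Per base of exon, HK1 stayed the leading hexokinase in every library. It made up 84.1% and 87.0% of the summed RPKM of HK1, HK2, HK3 and HKDC1 in the overexpressing replicates, and 90.5% and 90.9% in the controls. HK2 accounted for 15.7% and 12.8% against 9.33% and 8.87%. The ratio of HK2 to HK1 was 0.186 and 0.147 in the overexpressing libraries, against 0.103 and 0.0976 in the controls, without overlap. On the log2 scale this ratio was -2.59 ± 0.24 (SD, n = 2) in the overexpressing cells and -3.32 ± 0.06 (SD, n = 2) in the controls, and the difference of 0.72 had an exact permutation p of 0.33 (two-sided), the smallest that 2 against 2 libraries can give. The summed level of these hexokinases was 193 ± 5.66 RPKM (SD, n = 2) in the overexpressing cells and 191 ± 25.6 RPKM (SD, n = 2) in the controls, a difference smaller than the spread between the controls.

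**Figure D2:**
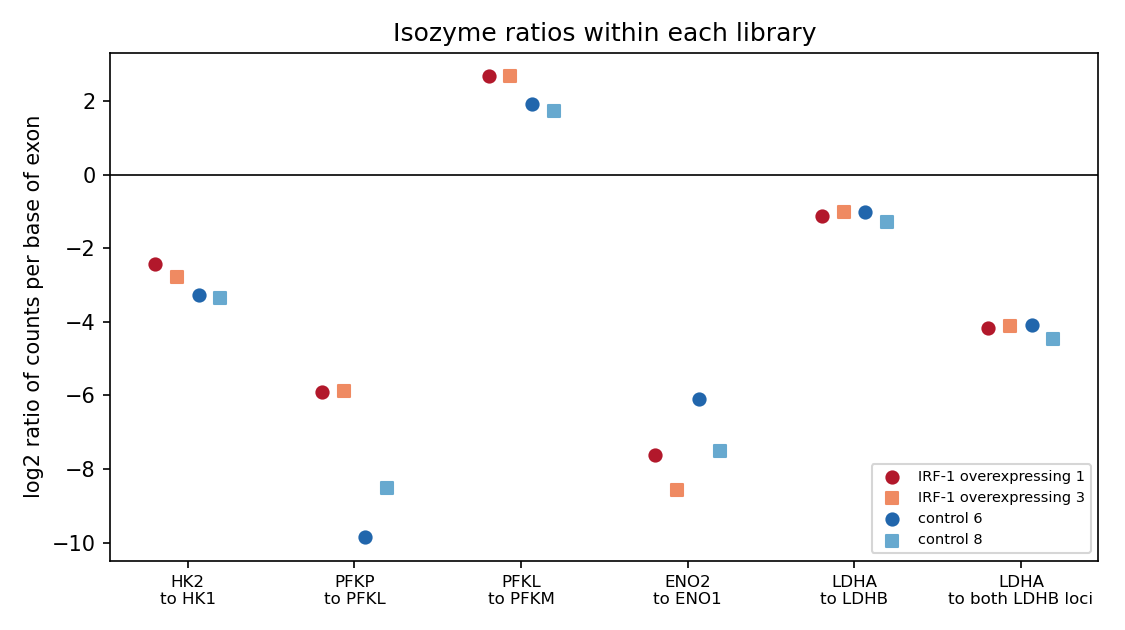
Log2 ratio of counts per base of exon for pairs of isozymes, with 1 point per library; circles and squares mark the replicates, red the IRF-1 overexpressing cells and blue the control cells. HK2 to HK1, PFKP to PFKL and PFKL to PFKM are higher in both overexpressing libraries than in both controls. ENO2 to ENO1 is lower in both overexpressing libraries, and LDHA to LDHB overlaps with either choice of LDHB locus.

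Glucose-6-phosphate isomerase (GPI) carries the product to phosphofructokinase, the committed step. GPI rose from 143 and 108 RPKM in control replicates 6 and 8 to 211 and 194 RPKM in the overexpressing replicates. Its log2 fold change of 0.69 (SE 0.17, edgeR adjusted p = 0.0176) lost its call without overexpressing replicate 1 (0.64) and without replicate 3 (0.75).

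PFKP, the platelet-type phosphofructokinase (ENSSSCG00000011158, chromosome 10, 67021453 to 67082534), had 285 and 236 counts in overexpressing replicates 1 and 3 and 7 and 16 counts in control replicates 6 and 8. These are 11.5 and 11.3 CPM against 0.448 and 0.914 CPM, so the gene was close to the floor of 3 counts in the controls and the overexpressing replicates were nearly equal. The log2 fold change was 4.04 (SE 0.40, 16.4-fold, edgeR adjusted p = 0.000635), rank 195 from the top of the 13250 genes tested. Leaving out any 1 library gave between 3.63 (without control replicate 6) and 4.66 (without control replicate 8) and kept the call. Control replicate 6, at 7 counts, lay under the limit of the filter on low counts. PFKP thus passed that filter through the group where it was high, and its call is not independent of it. With no filter on low counts its log2 fold change was 4.05. PFKP shares 631 exon bases with PITRM1 on the opposite strand, and the strand setting of the counting is not given in the sources used here, so reads of the pair cannot be told apart in those bases. Its span also overlaps LOC110255730, a long noncoding RNA in RefSeq.

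PFKP remained a minor isozyme in spite of this change. It contributed 1.43% and 1.44% of the summed RPKM of PFKP, PFKM and PFKL in the overexpressing libraries, against 0.0850% and 0.208% in the controls. PFKL, the liver-type enzyme, held most of the total, with 167 and 164 RPKM in the overexpressing libraries, against 102 and 82.0 RPKM in the controls. Its groups did not overlap, and it rose with a log2 fold change of 0.85 (SE 0.15, edgeR adjusted p = 0.00466), a call that each fit without 1 library also made. PFKM, the muscle-type enzyme, had 26.1 and 25.6 RPKM against 26.9 and 24.8 RPKM, and its log2 fold change was 0.00 (SE 0.13, 95% interval -0.31 to 0.31, edgeR adjusted p = 0.991). The ratio of PFKL to PFKM was thus 6.42 and 6.39 in the overexpressing libraries, against 3.77 and 3.30 in the controls. The summed phosphofructokinase level was 194 ± 2.79 RPKM (SD, n = 2) against 118 ± 15.2 RPKM (SD, n = 2), with an exact permutation p of 0.33 (two-sided).

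Phosphofructokinase is switched by a bisphosphate activator that the bifunctional PFKFB enzymes make and remove. PFKFB3, the form with the strongest kinase activity, had 645 and 530 counts in the overexpressing pair, against 72 and 58 in the controls. It rose with a log2 fold change of 2.70 (SE 0.25, edgeR adjusted p = 0.000500). PFKFB4 had 800 and 556 counts against 212 and 243, and rose with a log2 fold change of 1.10 (SE 0.19, edgeR adjusted p = 0.00500), a call lost in glmTreat (adjusted p = 0.655). PFKFB2, the heart form, moved the other way, with 82 and 108 counts against 160 and 260. It fell with a log2 fold change of -1.57 (SE 0.34, edgeR adjusted p = 0.0113), and this call was lost in glmTreat (adjusted p = 0.154) and without overexpressing replicate 1 (-1.26). In the summed RPKM of the PFKFB genes, PFKFB2 held 49.1% and 58.9% in the controls and 9.80% and 16.3% in the overexpressing cells, where PFKFB4 led with 63.0% and 55.4%.

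**Figure D3:**
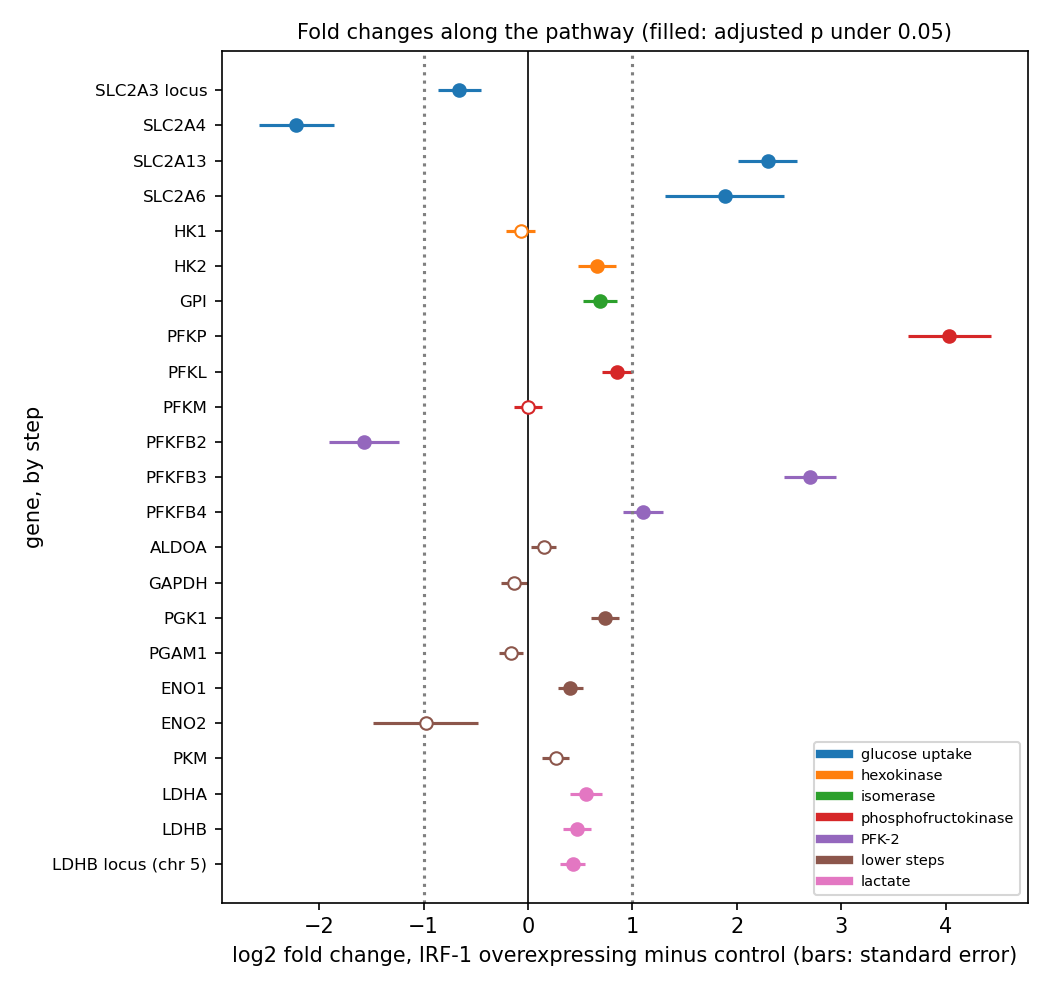
Log2 fold change, IRF-1 overexpressing minus control, of genes ordered by step, with bars for the standard error from edgeR; filled points have an adjusted p under 0.05, colours mark the step and dotted lines mark 1 and -1. PFKP at 4.04 and PFKFB3 at 2.70 lie farthest to the right, and HK1, PFKM, ALDOA, GAPDH and PGAM1 lie within 0.2 of 0.

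The lower steps split the sugar and harvest ATP. ALDOA, the aldolase that leads in these cells, had a log2 fold change of 0.15 (edgeR adjusted p = 0.395), and GAPDH, the dehydrogenase often used as a reference gene, had -0.14 (edgeR adjusted p = 0.448). PGK1 (ENSSSCG00000012440, chromosome X, 62187404 to 62210705), which makes the first ATP of the route, stood at 683 and 591 CPM in the overexpressing replicates and 395 and 371 CPM in the controls. The groups were clearly apart, and PGK1 rose with a log2 fold change of 0.73 (SE 0.13, 1.66-fold, edgeR adjusted p = 0.00617), a call that was lost without overexpressing replicate 1 (0.64). PGAM1, the mutase that follows, had a log2 fold change of -0.16 (edgeR adjusted p = 0.338). The triosephosphate isomerase TPI1 was counted at 6 to 8 reads per library. Its identifier also covers the RefSeq genes LRRC23 and SPSB2, and no level is drawn from it.

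Enolase was almost entirely ENO1. ENO1 (ENSSSCG00000022343, chromosome 6, 69385486 to 69401708) stood at 1592 and 1526 CPM in the overexpressing replicates and 1235 and 1118 CPM in the controls. Every overexpressing value exceeded every control value, and ENO1 rose with a log2 fold change of 0.41 (SE 0.12, 1.32-fold, edgeR adjusted p = 0.0421). The call was lost without overexpressing replicate 1 (0.39) and without replicate 3 (0.44). Its span overlaps LOC110261088, a long noncoding RNA in RefSeq.

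ENO2 (ENSSSCG00000028373, chromosome 5, 63796230 to 63836640) varied widely between replicates of the same group. It had 23.3 and 11.4 CPM in overexpressing replicates 1 and 3, and 51.4 and 17.5 CPM in control replicates 6 and 8. The highest value belonged to a control and the lowest to an overexpressing library, but overexpressing replicate 1 exceeded control replicate 8. Its log2 fold change of -0.98 (SE 0.50, 95% interval -2.15 to 0.18) did not pass the test (edgeR adjusted p = 0.183). Without control replicate 8 it became -1.55 and passed the test, without control replicate 6 it was -0.01 and without overexpressing replicates 1 and 3 in turn it was -1.57 and -0.56, none of which passed, and without a filter on low counts it was -0.96 and passed. ENO2 shares 853 exon bases with LRRC23 on the same strand, so its reads are uncertain. The span of ENO2 also overlaps the RefSeq record LOC110260590.

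Per base of exon, ENO2 made up 0.507% and 0.260% of the enolase level in the overexpressing libraries, against 1.43% and 0.542% in the controls. The log2 ratio of ENO2 to ENO1 was -7.61 and -8.58 in the overexpressing replicates and -6.10 and -7.51 in the controls. The groups did not overlap, although overexpressing replicate 1 and control replicate 8 were close. The difference of -1.28 had an exact permutation p of 0.33 (two-sided), and it ranged from -1.99 to -0.58 when 1 library was left out, with the extremes given by control replicates 8 and 6.

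ENO2 is widely used as a neuronal marker, and other neuronal markers differed between the groups. Of 18 such genes 17 had an identifier, 16 were tested, 9 rose and 1 fell, with a median log2 fold change of 1.63. TUBB3, a neuronal tubulin, rose by 4.80 (SE 0.54, edgeR adjusted p = 0.000961), and INA and SYP, a neurofilament and a synaptic vesicle protein, rose by 4.13 and 3.73 on the log2 scale. Without overexpressing replicates 1 and 3 in turn TUBB3 had 3.81 and 5.39, while INA had 3.31 without overexpressing replicate 1, 3.54 without control replicate 6 and 5.24 without control replicate 8. The identifier at the RefSeq position of NEFM, outside these counts, had 0.46 (edgeR adjusted p = 0.396). The list summed to 1641 and 1194 CPM in the overexpressing libraries, against 729 and 742 CPM in the controls, with UCHL1 as its most abundant gene. RBFOX3, a marker of mature neurons, had 6 and 3 counts against 1 and 0. MAP2, a microtubule-associated protein of neurons, was the 1 that fell (-0.66, edgeR adjusted p = 0.0375), a call lost without overexpressing replicate 1 (-0.42) and without control replicate 8 (-0.52). UCHL1 had -0.19 (edgeR adjusted p = 0.298), and the 6 tested markers that did not pass the test, UCHL1 among them, lay between -0.38 and 1.56. The part of neuronal transcripts in the values of PFKP or of any other member was not tested.

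The final member pair, LDHA and LDHB, moved together. LDHA (ENSSSCG00000013366, chromosome 2, 40813963 to 40826715) stood at 190 and 198 CPM in the overexpressing replicates and 146 and 118 CPM in the controls. The named LDHB identifier (ENSSSCG00000032557) is a compact locus on chromosome 2 (12988754 to 12990030) with 2 blocks of exon, where RefSeq has both an LDHB gene and a pseudogene record, LOC407246, so reads of these cannot be told apart. The identifier stood at 156 and 151 CPM against 112 and 110 CPM. Both genes were higher in each overexpressing library than in either control. LDHA rose with a log2 fold change of 0.56 (SE 0.15, edgeR adjusted p = 0.0298) and LDHB with 0.47 (SE 0.13, edgeR adjusted p = 0.0327).

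RefSeq also places an LDHB gene on chromosome 5 (51810932 to 51831218), where the identifier without a symbol ENSSSCG00000000576 carried far more reads. It stood at 1635 and 1650 CPM in the overexpressing replicates and 1189 and 1254 CPM in the controls. Its values again did not overlap, and it rose with a log2 fold change of 0.43 (SE 0.12, edgeR adjusted p = 0.0304). How reads that fit more than 1 place were counted is not given in the sources used here, and the sequences of both LDHB loci were not compared, so the division of reads between them is uncertain. The calls of LDHA and of both LDHB loci were lost without overexpressing replicate 1 (0.60, 0.46 and 0.45) and without replicate 3 (0.53, 0.50 and 0.43).

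The balance of LDHA to LDHB did not separate the groups. With the named locus, the ratio per base of exon was 0.464 and 0.499 in the overexpressing libraries, against 0.495 and 0.409 in the controls. The log2 difference was 0.10 with an exact permutation p of 0.667 (two-sided), and it ranged from -0.04 without control replicate 8 to 0.23 without control replicate 6. With both LDHB loci added, an alternative chosen after seeing the data, the ratio was 0.0557 and 0.0578 against 0.0588 and 0.0454, and the log2 difference was 0.13 (exact permutation p = 1.0, two-sided). The choice of locus thus set the level of the ratio, with LDHA at 5.28% and 5.46% of the lactate dehydrogenase RPKM in the overexpressing libraries, against 5.56% and 4.34% in the controls once both loci were counted.

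Carriers of lactate and pyruvate were sparsely annotated, with 5 of 8 symbols in the table and 4 tested (median log2 fold change 1.01). In edgeR 2 rose, beside 13.9% of all genes tested, and 0 fell, beside 15.5%. At an unadjusted p under 0.05, in DESeq2 and in limma-voom, 0 fell. EMB, a chaperone of monocarboxylate carriers, had 277 and 198 counts in the overexpressing pair, against 73 and 77 in the controls. It rose with a log2 fold change of 1.19 (SE 0.27, edgeR adjusted p = 0.0146), and MPC2, a subunit of the mitochondrial pyruvate carrier, rose by 0.70 (SE 0.16, edgeR adjusted p = 0.0163). Both calls were lost without overexpressing replicate 1 (1.08 and 0.60), and that of EMB also in glmTreat (adjusted p = 0.543). Neither the partner subunit MPC1 nor BSG, another chaperone of these carriers, has an identifier of that name, and both have an identifier without a symbol at their RefSeq position that the counts and the median leave out. The identifier at MPC1 rose by 0.77 (SE 0.14, edgeR adjusted p = 0.00529). The identifier at BSG stood at 460 and 445 CPM in the overexpressing replicates and 506 and 444 CPM in the controls. Its groups overlapped, and its log2 fold change was -0.07 (SE 0.13, 95% interval -0.38 to 0.23, edgeR adjusted p = 0.725).

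Summed over the isozymes of a step, the changes were uneven along the route. The overexpressing to control ratio of mean RPKM was 1.01 for hexokinase, 1.61 for GPI, 1.65 for phosphofructokinase and 1.11 for aldolase. It was 0.913 for glyceraldehyde-3-phosphate dehydrogenase, 1.66 for phosphoglycerate kinase, 0.893 for the mutase, 1.32 for enolase, 1.20 for pyruvate kinase and 1.36 for lactate dehydrogenase with both LDHB loci. The exact permutation p (two-sided) was 0.33, the smallest possible, for each of these steps except hexokinase (1.0). Among the other glycolytic enzymes 16 of 20 with an identifier were tested, and GPI and PFKL were the 2 that rose. Over all genes tested, 13.9% rose and 15.5% fell. None of the 16 fell in edgeR, in DESeq2, in limma-voom or at an unadjusted p under 0.05 (0 in each), and their median log2 fold change was 0.16. PKM, the main pyruvate kinase, had a log2 fold change of 0.26 (edgeR adjusted p = 0.164) and passed the test only without control replicate 6 (0.37).

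Regulators of glycolysis moved in both directions, with 4 of 12 tested genes higher, 3 lower and a median log2 fold change of -0.07. Beside these counts, 13.9% of all genes tested were higher and 15.5% lower. MLXIP, a glucose-sensing transcription factor, rose by 1.07 (SE 0.18, edgeR adjusted p = 0.00467), a call lost in glmTreat (adjusted p = 0.746). TIGAR, which lowers the activator of phosphofructokinase, had a log2 fold change of 0.50 (edgeR adjusted p = 0.0438) that lost its call without any 1 of the 4 libraries (0.44 to 0.57), in DESeq2 (0.50) and with library size alone (0.49).

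MYC, an activator of glycolytic genes and a reprogramming factor, was counted at 27 and 39 in the overexpressing libraries, against 152 and 72 in the controls. Since the cells carry exogenous OSKM, these counts may hold transgene as well as endogenous reads, which cannot be told apart here. MYC fell with a log2 fold change of -2.23 (SE 0.51, edgeR adjusted p = 0.0151), a call lost in glmTreat (adjusted p = 0.0859), without overexpressing replicate 1 (-1.86) and without control replicate 6 (-1.48). MYCN fell by 1.21 on the log2 scale (edgeR adjusted p = 0.0485), and its call was lost in DESeq2 (-1.20), in glmTreat (adjusted p = 0.660), with the filter at 1 CPM (-1.21), without overexpressing replicate 1 (-0.82) and without control replicate 6 (-0.59). HIF1A, the oxygen-regulated activator of the route, had a log2 fold change of -0.32 (edgeR adjusted p = 0.121), and only the fit without control replicate 6 (-0.40) passed the test.

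Hypoxia-induced genes outside glycolysis gave no common direction, as 5 of 18 rose, 5 fell and the median log2 fold change was -0.02. Over all genes tested, 13.9% rose and 15.5% fell. MXI1, a MYC antagonist, rose by 3.61 (SE 0.31, edgeR adjusted p = 0.000421), and EGLN1, an oxygen-sensing hydroxylase, rose by 1.56 (SE 0.19, edgeR adjusted p = 0.00110). NDRG1, VEGFA and EGLN3 had log2 fold changes of -3.23, -1.42 and -1.19, and EGLN3 lost its call in glmTreat (adjusted p = 0.387). The call of VEGFA, an angiogenic factor, was lost in limma-voom (-1.33), in glmTreat (adjusted p = 0.405), without overexpressing replicate 3 (-1.06) and without control replicate 6 (-0.72). The identifiers without a symbol at the RefSeq positions of BNIP3 and CA9, which the counts leave out, had log2 fold changes of 1.00 (edgeR adjusted p = 0.0175) and -0.16 (edgeR adjusted p = 0.673), and that of BNIP3 lost its call in glmTreat (adjusted p = 1.0) and without overexpressing replicate 1 (0.61).

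Neighbouring pathways of carbon metabolism were counted with the same adjusted p, by which 13.9% of all genes tested were higher and 15.5% lower. For the pyruvate dehydrogenase complex and its kinases, 1 of 12 genes rose, 1 fell and the median log2 fold change was 0.00. The phosphatase PDP2 (0.59, edgeR adjusted p = 0.0479) and the regulator PDPR (-0.59, edgeR adjusted p = 0.0334) each lost the call in 3 of the fits without 1 library, PDP2 without overexpressing replicates 1 (0.48) and 3 (0.72) or control replicate 6 (0.45), and PDPR without overexpressing replicates 1 (-0.55) and 3 (-0.62) or control replicate 8 (-0.41). PDP2 also lost it with upper quartile factors (0.59) and with library size alone (0.58). In the citric acid cycle 2 of 20 genes rose and 1 fell, with a median of 0.06, and among respiratory chain genes 5 of 59 rose with a median of 0.23. At an unadjusted p under 0.05 in edgeR 10 of the respiratory chain genes were higher, and DESeq2 and limma-voom gave 6 and 7 at their adjusted p. None of them fell in edgeR, DESeq2 or limma-voom, or at an unadjusted p under 0.05 (0 in each). Whether the members differ from these lists was not tested.

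Among pathways that share intermediates with glycolysis, the pentose phosphate pathway had 1 of 7 genes higher and 1 lower (median -0.06). Glycogen metabolism had 2 of 17 higher and 1 lower (median 0.02), and its PYGB, the brain-type glycogen phosphorylase, rose by 1.55 (SE 0.18, edgeR adjusted p = 0.00109). Gluconeogenesis had 5 genes tested (median -0.21), of which PC, pyruvate carboxylase, fell by 1.10 on the log2 scale (SE 0.20, edgeR adjusted p = 0.00545), a call lost in glmTreat (adjusted p = 0.659). Of the 30 genes tested on the mitochondrial genome, 5 rose (median 0.20).

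The labelled cell type was checked against marker genes, with 13.9% of all genes tested higher and 15.5% lower at the same adjusted p. Of 13 pluripotent markers 7 had an identifier and 6 were tested, and 4 fell, with a median log2 fold change of -1.63. Of the others, SOX2, SALL4 and TDGF1 have an identifier without a symbol at their RefSeq position, which these counts leave out, and they did not share a direction. The SOX2 position stood at 217 and 226 CPM in the overexpressing replicates and 234 and 182 CPM in the controls, with overlap. Its log2 fold change was 0.09 (SE 0.16, 95% interval -0.28 to 0.46, edgeR adjusted p = 0.697). The identifier there, with 6357 exon bases (119663183 to 119669539), extends beyond the RefSeq gene (119668476 to 119669435). Its reads may also include those of the SOX2 transgene in OSKM. The SALL4 position fell by 0.87 on the log2 scale (edgeR adjusted p = 0.0123), a call lost without overexpressing replicate 1 (-0.62), and that of TDGF1 had 0.79 (edgeR adjusted p = 0.134). ESRRB, CDH1 and KLF5 had -4.19, -2.25 and -1.93, and KLF5 lost its call in DESeq2 (-1.92), in glmTreat (adjusted p = 0.194), without overexpressing replicate 1 (-1.54), without replicate 3 (-2.38) and without control replicate 8 (-1.51). CDH1 had -1.66 without overexpressing replicate 1 and -3.21 without replicate 3. LIN28A also fell (-1.34, edgeR adjusted p = 0.00146). EPCAM (0.21, edgeR adjusted p = 0.574) and DNMT3B (0.27, edgeR adjusted p = 0.297) were higher in each overexpressing library than in either control but did not pass the test. For DNMT3B, overexpressing replicate 3 (1005 CPM) and control replicate 8 (996 CPM) were nearly equal, and control replicate 6 had 694 CPM. NANOG had between 5 and 11 counts in each library, so this defining marker was near the floor of 3 counts in both groups. The list summed to 1233 and 1277 CPM in the overexpressing libraries, against 1481 and 1643 CPM in the controls, with DNMT3B the most abundant.

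Trophoblast and fibroblast markers also differed between the groups, where 13.9% of all genes tested rose and 15.5% fell. Of 7 trophoblast markers tested (median log2 fold change -2.68) 4 fell and 1, TFAP2A, rose (3.73), and KRT18, KRT8 and TFAP2C had -5.77, -3.95 and -2.82. The overexpressing replicates differed in KRT18 (13.8 and 88.6 CPM) and KRT8 (250 and 1014 CPM). Without overexpressing replicate 1 these genes had -4.96 and -3.25, and without replicate 3 they had -7.65 and -5.28. This list summed to 319 and 1172 CPM in the overexpressing libraries, against 15680 and 9617 CPM in the controls, mostly KRT8, while CDX2 and HAND1 had 0 counts in every library. Of 7 fibroblast markers tested (median -1.60) 4 fell, with PDGFRB and COL1A1 at -5.49 and -1.97, and COL1A2 rose (1.08), a call lost in glmTreat (adjusted p = 0.862) and without overexpressing replicate 1 (0.65). DCN, another that fell, had 3 and 1 counts in the overexpressing pair, at or under the floor of 3 counts, against 19 and 19 in the controls. The size of its fitted log2 fold change (-3.63) is therefore uncertain, at -4.38 without overexpressing replicate 1 and -3.18, with the call lost, without replicate 3. PDGFRB had -6.32 without overexpressing replicate 3 and -4.79 without control replicate 6. Outside these counts, the identifier at the RefSeq position of THY1 had -2.18 (edgeR adjusted p = 0.0231), a call lost in limma-voom (-1.91), in glmTreat (adjusted p = 0.126), without overexpressing replicate 1 (-2.25), without replicate 3 (-2.11) and without control replicate 6 (-1.08), and it was -2.80 without control replicate 8. That at TWIST1 had 0.45 (edgeR adjusted p = 0.283) and passed the test only without control replicate 6 (0.93). The fibroblast list summed to 1360 and 1093 CPM against 1597 and 1543 CPM, mostly VIM, and COL5A1 and LUM had between 0 and 3 counts. The part of these marker differences in the values of the glycolysis genes was not tested.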

How the data were processed

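The deposited values are raw counts per Ensembl gene, for which the authors mapped reads to Sscrofa11.1 with HISAT2 and used featureCounts 1.6.4, and, per the file headers, each gene's exon length in bases, an other value used for RPKM (CPM per kilobase of exon). Symbols were given to 14692 identifiers, and RefSeq positions come from the same assembly, in which 99.8% of shared symbols overlap. Counts were tested with edgeR 4.0.16 in R 4.3.3 (TMM, filterByExpr, quasi-likelihood test, Benjamini-Hochberg adjustment over 13250 genes). The standard error is the log2 fold change divided by the square root of F. The script was tested on simulated data. Floors of 3 counts cover counting error only. Alternatives were other scalings and filters, DESeq2 1.42.0, limma-voom (limma 3.58.1), glmTreat and each library left out. The members and lists were chosen with earlier results of these data known. Named genes are all members, IRF1, genes of the 5 nearest lists, every called one among them, and the 3 highest and 3 lowest called of each other list; RBFOX3, NANOG, CDX2, HAND1, COL5A1 and LUM were added as markers near 0, MAP2 and the most abundant gene of each marker list, and the identifiers at the RefSeq positions of SLC2A3, SLC2A1, LDHB and, where 1 identifier covers that gene alone, of listed genes without a symbol in the table, and TPI1, after their values were seen. LIN28A and EPCAM were also added after their values were seen. The ChIP-Seq libraries were not analysed here. Results for some single genes are left out of the lists and sums and are not reported here.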

Additional observations from a re-analysis of the deposited data

How the results depend on the processing

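Each group has 2 libraries, and 1 when a library is left out (the lone library is then assumed to vary like the others). PFKP was called higher in all 13 alternatives to the fit. Called genes numbered 1141 higher and 1410 lower; glmTreat, which tests against the fold limit itself, gave 611 and 603, and left 1 member (PFKP) at an adjusted p under 0.05 in place of 6. Leaving out 1 library gave 756 to 1156 higher genes, 874 to 1548 lower genes, 1 to 6 members higher at that adjusted p, and 0 to 1 members lower by either rule, the 1 being ENO2 without control replicate 8. ENO2 was also the 1 member lower when no filter on low counts was used. The sign of HK1 turned without control replicate 6, in a range of -0.189 to 0.0689 over the fits without 1 library. PFKM, near 0 throughout, changed sign without a filter (0.0154), with the filter at 1 CPM (0.000785), in DESeq2 (0.00528) and without mitochondrial and the 10 highest genes (0.00250), and it ranged from -0.0513 to 0.0556 when 1 library was left out. The identifiers at the RefSeq positions of BSG (-0.153 to 0.0251) and SOX2 (-0.0687 to 0.284) changed sign without control replicates 6 and 8, respectively. The causes were not tested. Without 1 library the log2 ratio difference ranged from 0.55 to 0.90 for HK2 to HK1, from -1.99 to -0.58 for ENO2 to ENO1 and from -0.04 to 0.23 for LDHA to LDHB, whose sign turned without control replicate 8. The ratio of SLC2A3 to SLC2A1 was not run, since neither symbol has an identifier and the reads of SLC2A1 cannot be told apart from those of other genes. No paired analysis was run, because the sources used here do not say whether libraries of the groups were matched.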
